A study of Mus musculus with 6 samples.

Results

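Interferon-stimulated genes are the genes that cells switch on when they sense an interferon. The set described here holds 36 such genes outside the Gbp family, chosen by name, and all 36 were found in the deposited table of gene expression in the distal colon. They fill 35 of its 23108 named rows, because Igtp and Irgm2 share a row, and Irf9 shares one with Rnf31, which is not in the set. The tissue came from 3 TNFR2-knockout mice, which lack the second receptor for tumor necrosis factor, and from 3 WT mice. All were males of 8 weeks labelled with the strain C57Bl/6, and the labels name no treatment in either genotype. The sources used here do not say which part of the receptor gene was deleted, in which cells, or how the knockout was bred. Libraries came from whole tissue, so all cell types of the colon wall are mixed. Values are FPKM, fragments scaled to transcript length and to mapped fragments, with 1 library per mouse. The comparison asks how the transcriptome of a colon without this receptor differs from that of a WT colon.

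Interferons of type I and type III signal through receptor-bound kinases to a complex that holds Stat2 and Irf9, which binds the interferon-stimulated response element in promoters. Interferon gamma signals to a Stat dimer that binds the gamma-activated sequence, and Irf1 is among its early targets. In the gut, resident microbes keep a low tonic level of these genes, and in epithelial cells much of it comes from type III interferon. Their products sense foreign nucleic acid, cut or block viral RNA, attack the vacuoles of intracellular pathogens and amplify the response.

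Tnfrsf1b, the gene of the targeted receptor, had 1.17, 1.12 and 0.924 FPKM in the knockout libraries, against 7.49, 8.20 and 8.17 FPKM in the WT libraries. All 6 libraries carried the level their labels imply, and the log2 change was -2.11 ± 0.084 (± SE; adjusted p by limma and Benjamini-Hochberg = 7.1e-05). Average stated depth was 50M paired-end reads per library, and the summed FPKM ran from 655274 to 709593. Markers of colon epithelium summed to 4380 to 5865 FPKM in knockout and to 4136 to 5813 FPKM in WT libraries, and Epcam, a defining marker, ran from 558 to 772 FPKM. Skin and skeletal muscle markers also varied. The 5 skin markers summed to 40.8, 335 and 619 FPKM in the knockout libraries and to 647, 255 and 721 FPKM in the WT libraries. The 5 muscle markers summed to 113, 1409 and 1022 FPKM in the knockout libraries and to 6225, 1936 and 2251 FPKM in the WT libraries. Knockout library 1 thus had the least of both, and WT libraries 1 and 3 had the most.

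None of the interferon-stimulated genes rose or fell in the knockout colon by the test across all genes. In whole tissue, fewer cells of a type and less RNA per cell cannot be told apart. Of the 36 genes, 31 in 30 rows reached a mean of 0.5 FPKM over the 6 libraries and were tested, and 5 (Oas2, Oas3, Mx1, Mx2 and Ifi44) did not. In limma with Benjamini-Hochberg adjustment 0 of the 30 rows passed, where 0.288% of all 14564 tested genes did, and the adjusted p-values of the 30 ran from 0.159 for Ifit3 to 0.947 for Trim25. Without adjustment 6 of the 30 had a p under 0.05, which is 20.0% of them, against 16.2% of all tested genes. Of these, 5 were higher and 1 was lower, where 6.3% of all tested genes were higher and 9.91% lower at that p. The share changed when single libraries were left out, as did that of all tested genes. For the set it was 43.3% (13 rows) without knockout library 2, where 17.6% of all tested genes had such a p. Without WT library 3 it was 10% (3 rows), where 8.49% of all tested genes did. In the authors' deposited table no row of the set had a q-value under 0.05, where 1.04% of named rows did, and the lowest was 0.633, for Ifit3.

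The direction of the small differences was uneven. Of the 30 tested rows 21 had a higher and 9 a lower log2 mean in the knockout (70.0% higher, where 42.6% of all tested genes were). Their median log2 change was 0.16, beside -0.027 over all tested genes, and 24 of the 30 lay within 0.25 of 0. For the 30 rows taken singly, SE was between 0.064 and 0.25 with a median of 0.11, which is not an error of the set's median. The median was 0.075 without knockout library 1, and 20 rows were then higher. Without knockout library 1 and WT libraries 1 and 3, which leaves a lone WT library whose spread is assumed, 13 of the 30 were higher and the median was -0.021, beside -0.038 over all tested genes. An adjusted p above the threshold does not show that a gene was the same in both genotypes.

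**Figure D1:**
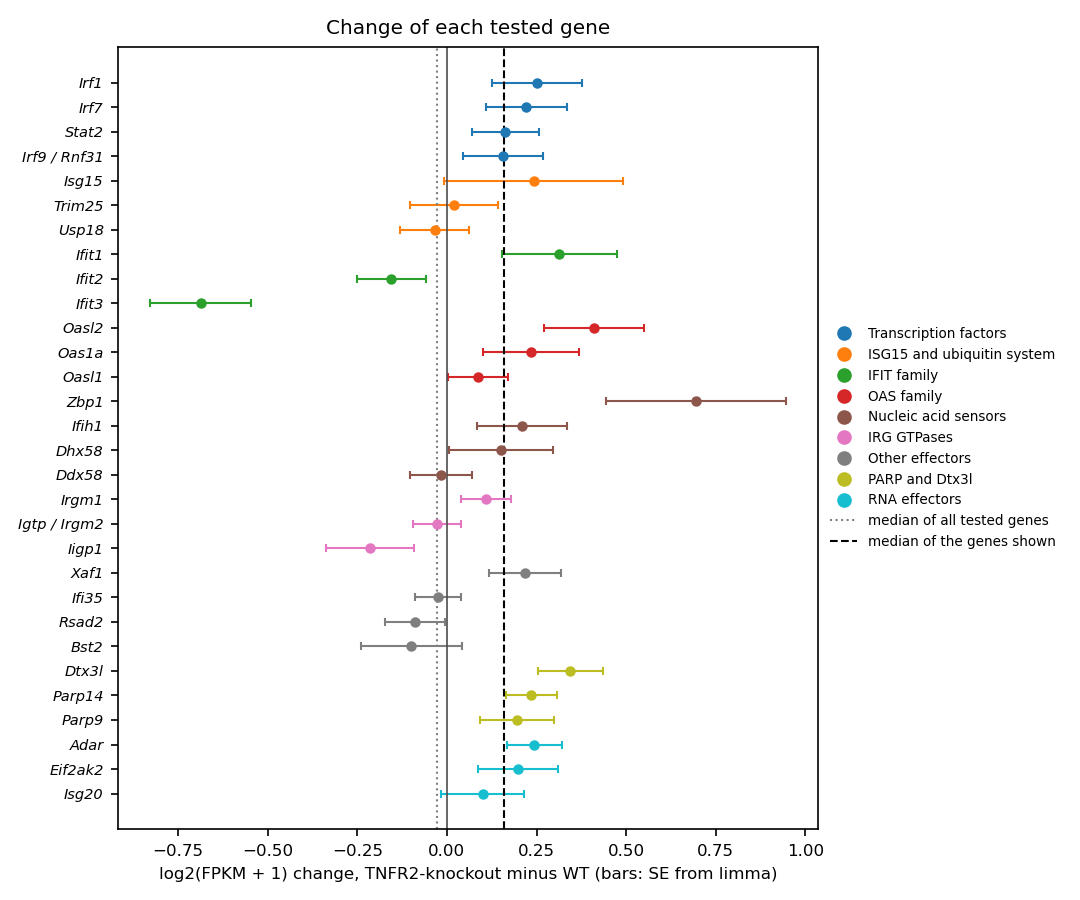
Log2(FPKM + 1) change (TNFR2-knockout minus WT, x axis) of the 30 tested rows, grouped by role. Points are limma estimates from 3 libraries per genotype and bars are SE. Zbp1 at 0.70 and Ifit3 at -0.69 lie farthest from 0 in the 2 directions, and the dashed median of the set (0.16) lies to the right of the dotted median of all tested genes (-0.027).

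Levels of the set spanned a wide range. On the FPKM scale, which allows genes to be compared per length, the mean over 6 libraries ran from 0.198 for Oas2 to 63.9 for Irf1, with a median of 7.01 over the 35 rows. The 30 tested rows had a median of 9.46 FPKM, beside 8.97 FPKM over all tested genes. Above 10 FPKM stood 13 rows, led by Irf1, Irf7, Bst2, Trim25 and Oas1a. The Ifit genes, Rsad2 and Usp18 averaged between 1 and 4 FPKM in either genotype, and the 5 untested genes were under 0.5 FPKM. Neighbours in this order mostly overlap in their library values. The order of Trim25, Oas1a, Ifi35, Irf9 and Parp9, for example, is not resolved by 6 libraries.

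**Figure D2:**
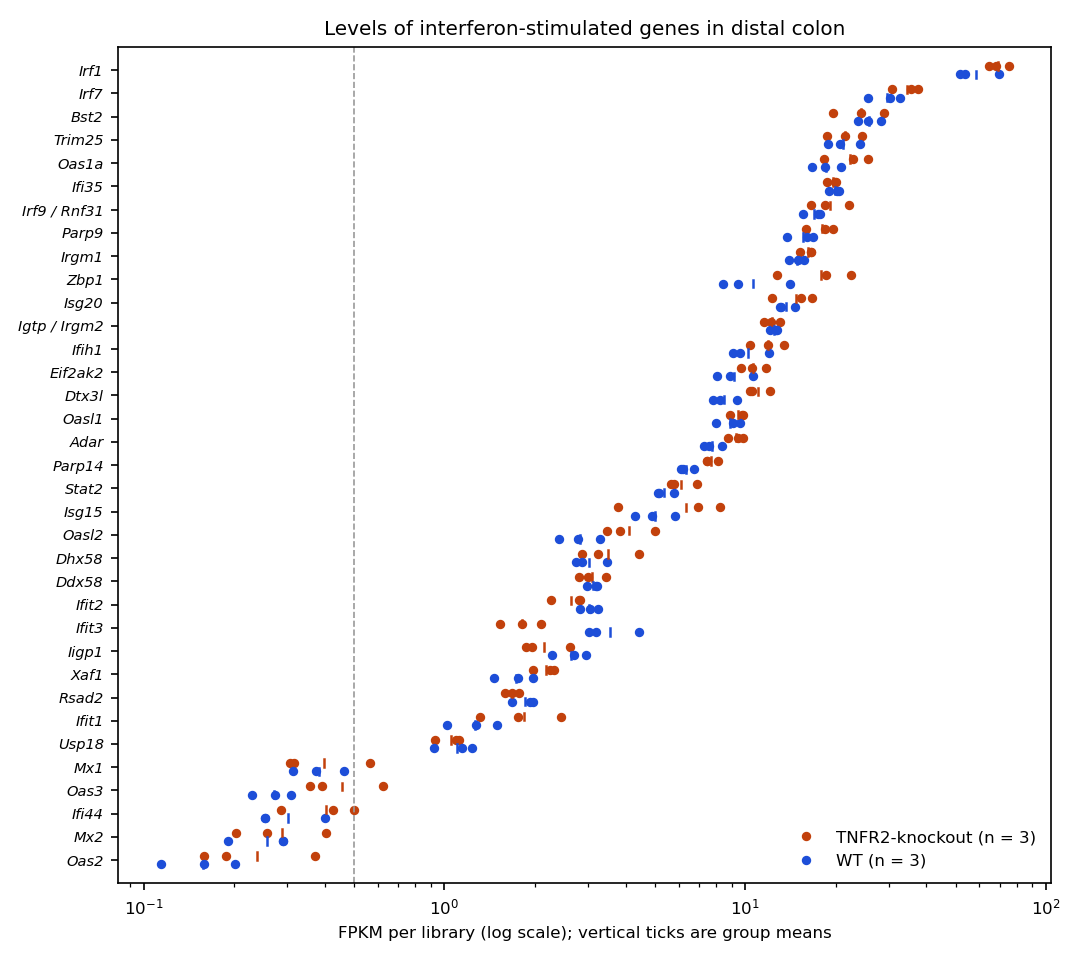
FPKM in each library (x axis, log scale) of the 35 rows in order of mean level, with TNFR2-knockout libraries above WT libraries. Vertical ticks are group means (n = 3 each) and the dashed line is the minimum of 0.5 FPKM for testing. Genotypes lie close together over the whole range. Ifit3 (lower), Oasl2, Dtx3l, Parp14, Adar and the untested Oas3 (higher) are the 6 rows whose libraries do not overlap. Of the tested rows of the set, 13.3% lay higher and 3.33% lower without overlap. Of all tested genes, 9.3% lay higher and 12.5% lower in this way.

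Promoter windows were searched for the sequences through which interferon signals are known to act. RefSeq promoters on GRCm38.p6, from 250 bases before to 50 bases after each start, were at hand for 27 of the 36 genes. The core of the interferon-stimulated response element, read as GAAA, any 2 bases and GAAA on either strand, was in 14 of the 27 (51.9%), where 3.99% of the 27025 genes with a promoter held it. The gamma-activated sequence TTCNNNGAA, which reads the same on both strands, was in 10 (37.0%, against 9.55%), and 5 genes held both (Oas1a, Igtp, Irgm2, Bst2 and Eif2ak2). In Bst2 a match of each kind overlaps the other. These shares are descriptions, since the genes were chosen for their response to interferon. RefSeq starts are not always the outer ends of the deposited rows. The windows printed below for Ifit3, Irgm1 and Irgm2 lie inside the deposited spans of their rows, and that of Igtp overlaps its row.

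A few of these windows are printed 5′ to 3′ on the gene's strand, with matches to either motif in capitals. A match is not a binding site, and binding was not measured. The first pair are Ifit3 and Ifit1, genes of 1 cluster whose means lay on opposite sides of WT in the knockout. Both hold a pair of matches to the response element core, here on the opposite strand and so read as TTTC, any 2 bases and TTTC. Ifit3 is shown from chr19:34583358-34583431, plus strand, and Ifit1 from chr19:34640770-34640828, plus strand.
Ifit3: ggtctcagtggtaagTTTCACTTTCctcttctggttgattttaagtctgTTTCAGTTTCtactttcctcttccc
Ifit1: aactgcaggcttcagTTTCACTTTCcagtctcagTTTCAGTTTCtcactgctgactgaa
The next have matches to the same core in tandem, so that they overlap: Isg15 (chr4:156200860-156200911, minus strand), with 3 overlapping matches, and Irgm1 (chr11:48871421-48871465, minus strand), with 2.
Isg15: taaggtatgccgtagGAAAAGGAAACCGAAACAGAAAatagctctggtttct
Irgm1: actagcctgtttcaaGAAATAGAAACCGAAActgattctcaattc
Igtp (chr11:58199496-58199546, plus strand) and Irgm2 (chr11:58214887-58214937, plus strand), which share a row, have a match to the gamma-activated sequence followed by one to the response element core in the same spacing.
Igtp: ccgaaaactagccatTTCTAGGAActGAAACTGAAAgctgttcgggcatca
Irgm2: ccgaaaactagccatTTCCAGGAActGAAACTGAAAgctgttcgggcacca

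The transcription factors of the response all averaged higher in the knockout, and none passed the test. Irf1, the interferon regulatory factor that acts early after interferon gamma (chromosome 11, 53769954 to 53859573, mm10), had 75.2, 64.6 and 68.2 FPKM in the knockout libraries, against 51.6, 69.9 and 53.9 FPKM in the WT libraries. Irf7, which amplifies type I interferon production, had 37.4, 30.7 and 35.5 FPKM in the knockout libraries, against 25.6, 32.6 and 30.3 FPKM in the WT libraries. In both genes knockout library 1 was highest and WT library 1 lowest, and WT library 2 lay within the knockout range, so the genotypes overlapped. Log2 changes were 0.25 ± 0.13 for Irf1 and 0.22 ± 0.11 for Irf7 (± SE; adjusted p by limma and Benjamini-Hochberg = 0.371 and 0.375). Stat2 averaged 6.13 ± 0.687 FPKM in knockout and 5.36 ± 0.378 FPKM in WT libraries (SD, n = 3 each), and the row of Irf9, the DNA-binding partner of Stat2, 19.1 ± 2.84 FPKM in knockout and 16.9 ± 1.15 FPKM in WT libraries. The Irf9 row also counts Rnf31, a ubiquitin ligase subunit, and cannot be given to either gene. Without knockout library 1 and WT libraries 1 and 3 the log2 changes of Irf1, Stat2 and the Irf9 row were -0.074, -0.013 and -0.019, on the other side of 0.

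Sensors of foreign nucleic acid included the gene with the highest fitted log2 change of the set. Zbp1, which binds Z-form nucleic acid and can start necroptosis (chromosome 2, 173206612 to 173218922), had 22.5, 12.7 and 18.5 FPKM in the knockout libraries, against 8.44, 14.0 and 9.42 FPKM in the WT libraries. Knockout libraries 1 and 3 lay above all WT libraries, and knockout library 2 lay below WT library 2, so the genotypes overlapped. Its mean was 1.68-fold that of WT (17.9 ± 4.89 FPKM in knockout and 10.6 ± 2.99 FPKM in WT libraries; SD, n = 3 each), with a log2 change of 0.70 ± 0.25 (± SE; adjusted p by limma and Benjamini-Hochberg = 0.279). In the authors' deposited table its p-value was 0.0557 and its q-value 0.935. Over all alternatives the log2 change of Zbp1 ran from 0.12, without knockout library 1 and WT libraries 1 and 3, to 0.91, without knockout library 2.

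Of the RIG-I-like receptors, which detect viral RNA in the cytoplasm, Ifih1 (MDA5) averaged 11.9 ± 1.54 FPKM in knockout and 10.2 ± 1.53 FPKM in WT libraries (SD, n = 3 each). Ddx58 (RIG-I) averaged 3.09 ± 0.328 FPKM in knockout and 3.13 ± 0.129 FPKM in WT libraries, and Dhx58, the regulatory member LGP2, 3.5 ± 0.816 FPKM in knockout and 3.03 ± 0.398 FPKM in WT libraries. Libraries of the genotypes overlapped in all 3, with adjusted p-values of 0.438, 0.940 and 0.618 in limma with Benjamini-Hochberg adjustment. Knockout library 1 was the highest of the 6 in each.

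The Ifit family, tetratricopeptide repeat proteins that bind viral RNA, gave the one gene of the set whose knockout libraries all lay below the WT libraries. Ifit3 (chromosome 19, 34583261 to 34588982) had 1.80, 2.09 and 1.53 FPKM in the knockout libraries, against 3.02, 4.44 and 3.18 FPKM in the WT libraries. Its knockout mean was 50.9% of WT (1.81 ± 0.282 FPKM in knockout and 3.55 ± 0.776 FPKM in WT libraries; SD, n = 3 each), and its libraries did not overlap, as in 12.5% of all tested genes in this direction. The log2 change was -0.69 ± 0.14 (SE), with the smallest unadjusted p of the set, and did not pass after adjustment (limma, Benjamini-Hochberg adjusted p = 0.159). Over the alternatives the adjusted p ran from 0.012 to 0.547, and the one fit in which it passed was that without knockout library 1 and WT libraries 1 and 3, where the lone WT library, 2, is the highest for Ifit3 (log2 change -0.96).

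Ifit1 (chromosome 19, 34640889 to 34650009) had 2.44, 1.32 and 1.76 FPKM in the knockout libraries, against 1.27, 1.02 and 1.5 FPKM in the WT libraries. Ifit2 (chromosome 19, 34550694 to 34576534), the Ifit gene with the highest mean in the set, had 2.82, 2.81 and 2.26 FPKM in the knockout libraries, against 3.23, 2.82 and 3.05 FPKM in the WT libraries. Ifit1 averaged higher and Ifit2 lower in the knockout, with overlapping libraries in both genes, and log2 changes of 0.31 ± 0.16 and -0.16 ± 0.097 (± SE; adjusted p by limma and Benjamini-Hochberg = 0.376 and 0.449).

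Ifit3 has a near copy in the same cluster, named I830012O16Rik in the table and Ifit3b in RefSeq. Their transcripts in the GENCODE annotation are 97.8% identical over 1700 aligned bases. The sources used here do not say how reads common to such copies were assigned, which makes the Ifit3 value uncertain. I830012O16Rik had 1.90, 1.94 and 1.64 FPKM in the knockout libraries, against 1.77, 2.24 and 1.96 FPKM in the WT libraries. The copy thus overlapped between genotypes (log2 change -0.080 ± 0.096, ± SE; adjusted p by limma and Benjamini-Hochberg = 0.691).

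Between the copies lies Gm14446 (Ifit1bl1 in RefSeq), an Ifit1-like gene picked once its values were known. It was expressed far above the rest of the cluster, with 54.5, 39.7 and 37.1 FPKM in the knockout libraries, against 54.7, 94.4 and 66.5 FPKM in the WT libraries. Its mean level was 21.6 times that of Ifit3, its log2 change was -0.69 ± 0.23 (± SE; adjusted p by limma and Benjamini-Hochberg = 0.269), and in the authors' deposited table its q-value was 0.0178. 2010002M12Rik (Ifit1bl2 in RefSeq), also picked afterwards, averaged 1.42 ± 0.359 FPKM in knockout and 2.15 ± 0.476 FPKM in WT libraries (SD, n = 3 each). In both neighbours the WT mean was the higher, as in Ifit3, and WT library 2 was highest for Gm14446 and Ifit3. The libraries of 2010002M12Rik overlapped between genotypes (limma, Benjamini-Hochberg adjusted p = 0.299), and WT library 3 was its highest. Transcripts of Ifit1bl1 and Ifit1bl2 are 89% identical over 2201 aligned bases, so reads of the pair may be split between them.

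**Figure D3:**
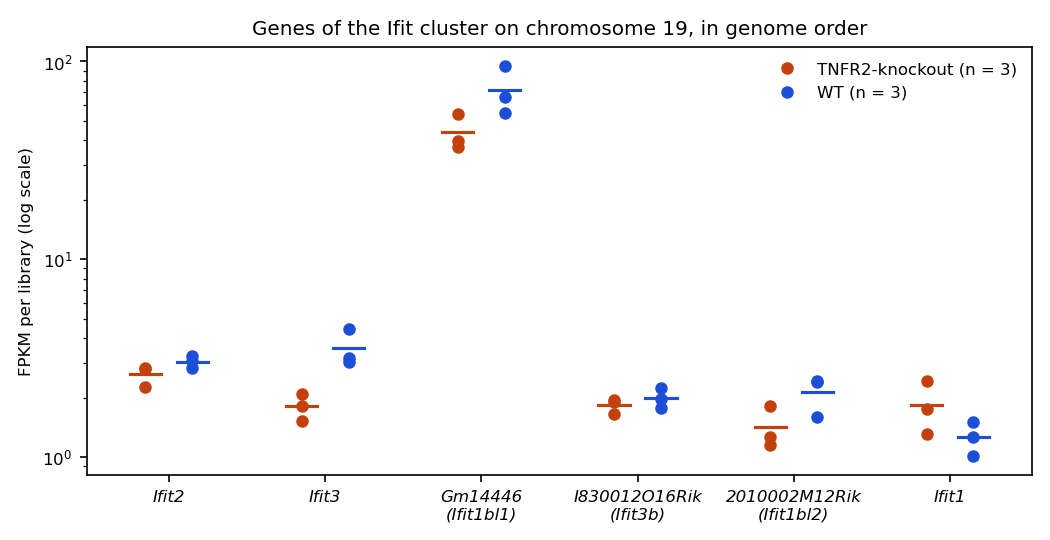
FPKM in each library (y axis, log scale) of the 6 genes of the Ifit cluster on chromosome 19, in genome order. TNFR2-knockout libraries are left of WT libraries in each pair, and horizontal lines are group means (n = 3 each). Knockout values lie below WT values without overlap for Ifit3 and Gm14446, and the knockout mean is above the WT mean for Ifit1.

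The oligoadenylate synthetases make the messenger that activates RNase L when they bind viral RNA. Oas1a (chromosome 5, 120896257 to 120907525), the highest of the family in the set, had 25.6, 18.2 and 22.8 FPKM in the knockout libraries, against 16.6, 20.8 and 18.5 FPKM in the WT libraries. Oasl2 (chromosome 5, 114896934 to 114912245), an enzymatically active relative of the family, had 5.03, 3.46 and 3.82 FPKM in the knockout libraries, against 2.79, 2.41 and 3.28 FPKM in the WT libraries. Oas1a overlapped between genotypes and Oasl2 did not, with log2 changes of 0.23 ± 0.14 and 0.41 ± 0.14 (± SE; adjusted p by limma and Benjamini-Hochberg = 0.418 and 0.269). Knockout library 1 was highest for both. Oasl1, which lies beside Oasl2, averaged 9.49 ± 0.517 FPKM in knockout and 8.89 ± 0.830 FPKM in WT libraries (SD, n = 3 each). The Oas1a transcript is 97.5% identical to that of Oas1g over 1860 aligned bases, so reads of the pair may be split between them.

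Oas2 and Oas3 were under the minimum for testing. Oas3 had 0.624, 0.358 and 0.391 FPKM in the knockout libraries, against 0.309, 0.274 and 0.229 FPKM in the WT libraries, without overlap, and Oas2 0.188, 0.370 and 0.159 FPKM in the knockout libraries, against 0.202, 0.114 and 0.158 FPKM in the WT libraries, with overlap. With no minimum for testing, the limma, Benjamini-Hochberg adjusted p of Oas3 was 0.326. The Mx GTPases, which trap viral nucleocapsids, were as low: Mx1 had 0.566, 0.317 and 0.306 FPKM in the knockout libraries, against 0.315, 0.464 and 0.373 FPKM in the WT libraries, and the highest Mx2 value was 0.405 FPKM. The Mx1 gene of C57BL/6 mice is known to lack part of its coding exons.

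The 3 genes linked to antiviral ADP-ribosylation all averaged higher in the knockout, and none passed the test. Dtx3l, a ubiquitin ligase that works as a pair with Parp9 (chromosome 16, 35926515 to 35972621), had 12.1, 10.4 and 10.6 FPKM in the knockout libraries, against 7.80, 9.37 and 8.22 FPKM in the WT libraries. Parp14, an ADP-ribosyltransferase beside them (chromosome 16, 35832878 to 35871382), had 8.09, 7.44 and 7.45 FPKM in the knockout libraries, against 6.20, 6.74 and 6.13 FPKM in the WT libraries. Knockout libraries lay above all WT libraries in both genes, as in 9.3% of all tested genes in this direction (4 of 30 rows of the set, 13.3%). The log2 changes were 0.34 ± 0.091 and 0.24 ± 0.071 (± SE; adjusted p by limma and Benjamini-Hochberg = 0.218 and 0.237). Parp9 had 19.6, 15.9 and 18.3 FPKM in the knockout libraries, against 13.8, 16.8 and 16 FPKM in the WT libraries, with overlap, a log2 change of 0.20 ± 0.10 and an adjusted p of 0.385 in the same fit. Parp9 and Dtx3l are read in opposite directions with overlapping exons. The sources used here do not say if reads were counted by strand, so whether reads of the pair were kept apart is unknown. In all, 13 of the 36 genes have exons that overlap another annotated gene, 9 of them on the opposite strand.

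Among genes that act on RNA, Adar, which edits adenosine in double-stranded RNA and so hides self RNA from the sensors (chromosome 3, 89715022 to 89764632), had 9.47, 8.75 and 9.79 FPKM in the knockout libraries, against 7.31, 8.34 and 7.55 FPKM in the WT libraries. Eif2ak2 (PKR), the kinase that halts translation on double-stranded RNA, had 11.7, 9.69 and 10.5 FPKM in the knockout libraries, against 8.04, 10.6 and 8.90 FPKM in the WT libraries. Adar did not overlap between genotypes and Eif2ak2 did, with log2 changes of 0.24 ± 0.077 and 0.20 ± 0.11 (± SE; adjusted p by limma and Benjamini-Hochberg = 0.248 and 0.411). In the authors' deposited table Adar stands at 9.10 FPKM in knockout and 7.57 FPKM in WT, beside a fold change entered as 0 on the log2 scale. That entry does not match the means, so the deposited table gives no usable test of Adar. The exons of Adar overlap those of Chrnb2 on the opposite strand. Isg20, an RNA exonuclease, had 16.7, 12.2 and 15.4 FPKM in the knockout libraries, against 13.1, 14.7 and 13.1 FPKM in the WT libraries, and its genotypes overlapped (adjusted p = 0.684 in limma with Benjamini-Hochberg adjustment).

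The ISG15 system tags proteins with a ubiquitin-like modifier. Isg15 itself spread widely among the knockout mice, with 8.27, 3.78 and 6.97 FPKM in the knockout libraries, against 4.89, 4.29 and 5.83 FPKM in the WT libraries. The WT values lay inside the knockout range, and SE (0.25) was as large as the log2 change (0.24). Trim25, the ligase that activates RIG-I, had 24.4, 18.7 and 21.5 FPKM in the knockout libraries, against 18.8, 24.0 and 20.6 FPKM in the WT libraries, and Usp18, the protease that removes Isg15 and damps the type I receptor, averaged 1.05 ± 0.102 FPKM in knockout and 1.10 ± 0.164 FPKM in WT libraries (SD, n = 3 each). Their log2 changes of 0.021 ± 0.12 and -0.034 ± 0.096 (± SE; adjusted p by limma and Benjamini-Hochberg = 0.947 and 0.883) were smaller than their errors and took the other sign under some alternatives. Isg15, like Oas2 and Oas3, was given by library after its values were seen.

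Immunity-related GTPases attack the vacuoles of intracellular pathogens and are known to depend on interferon gamma. Irgm1, a regulatory member, had 16.6, 15.2 and 16.5 FPKM in the knockout libraries, against 14.9, 15.7 and 14.0 FPKM in the WT libraries, and the shared row of Igtp (Irgm3) and Irgm2, also regulatory members, averaged 12.2 ± 0.744 FPKM in knockout and 12.5 ± 0.310 FPKM in WT libraries (SD, n = 3 each). Iigp1 (Irga6), an effector that coats the vacuole, averaged lower, with 2.15 ± 0.406 FPKM in knockout and 2.64 ± 0.348 FPKM in WT libraries. All 3 rows overlapped between genotypes, with log2 changes of 0.11 ± 0.070, -0.027 ± 0.067 and -0.21 ± 0.12 (SE) and adjusted p-values by limma and Benjamini-Hochberg between 0.417 and 0.864.

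Of the remaining effectors, Bst2 (tetherin), which holds budding virus at the cell surface, had 28.8, 24.3 and 19.6 FPKM in the knockout libraries, against 28.1, 23.7 and 25.6 FPKM in the WT libraries. Xaf1, an antagonist of the caspase inhibitor XIAP, had 2.24, 2.31 and 1.96 FPKM in the knockout libraries, against 1.97, 1.46 and 1.75 FPKM in the WT libraries. All WT values of Bst2 lay within its knockout range, and in Xaf1 a WT and a knockout library lay side by side, at 1.97 and 1.96 FPKM. Log2 changes were -0.10 ± 0.14 and 0.22 ± 0.10 (± SE; adjusted p by limma and Benjamini-Hochberg = 0.742 and 0.337). Rsad2 (viperin), a radical SAM enzyme that blocks viral RNA synthesis, averaged 1.68 ± 0.0881 FPKM in knockout and 1.86 ± 0.162 FPKM in WT libraries, and Ifi35 19.5 ± 0.762 FPKM in knockout and 19.9 ± 0.798 FPKM in WT libraries (SD, n = 3 each), with overlap in both. Ifi44 stayed between 0.287 and 0.502 FPKM in knockout and between 0.253 and 0.402 FPKM in WT libraries.

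Libraries ranked alike in many rows of the set. Of the 35 rows 25 had their highest value in knockout library 1 and 14 their lowest in WT library 1, and in none was knockout library 1 the lowest. Within the knockouts, library 2 was lowest in 23 rows and library 1 highest in 26. Within WT, library 2 was highest in 20 rows and library 1 lowest in 17. These ranks were not counted over all tested genes, so they are not shown to be particular to the set. The epithelial markers Epcam, Vil1 and Cdh17 were also highest in knockout library 1, while Krt8, Krt20 and Car1 were highest in other libraries. The median deviation of the 30 tested rows from their own mean was 0.22, -0.044 and 0.084 on the log2 scale in the knockout libraries, against -0.15, 0.016 and -0.052 in the WT libraries. These medians overlapped between genotypes, and their pooled SD within genotypes was 0.11.

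Markers of epithelium shared part of this order. The 6 markers summed to 5542, 4380 and 5865 FPKM in the knockout libraries, against 4136, 5813 and 4788 FPKM in the WT libraries, so that knockout library 2 and WT library 1 were lowest within their genotype in both measures, while knockout library 3, not 1, was highest for epithelium among the knockouts. With each library divided by its epithelial marker level, a scaling added after the data were seen, 20 of the 30 tested rows were higher in the knockout, where 25.9% of all tested genes were. Their median log2 change was 0.086 and that of all tested genes -0.10. One factor per library shifts both medians nearly alike, so the distance between them, 0.19 with and without this scaling, says nothing of epithelial content. With the skin marker level as a covariate, also added afterwards, the median was 0.075 for the set and -0.036 for all tested genes, a distance of 0.11, and 19 rows were higher. The distance was 0.017 without knockout library 1 and WT libraries 1 and 3.

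**Figure D4:**
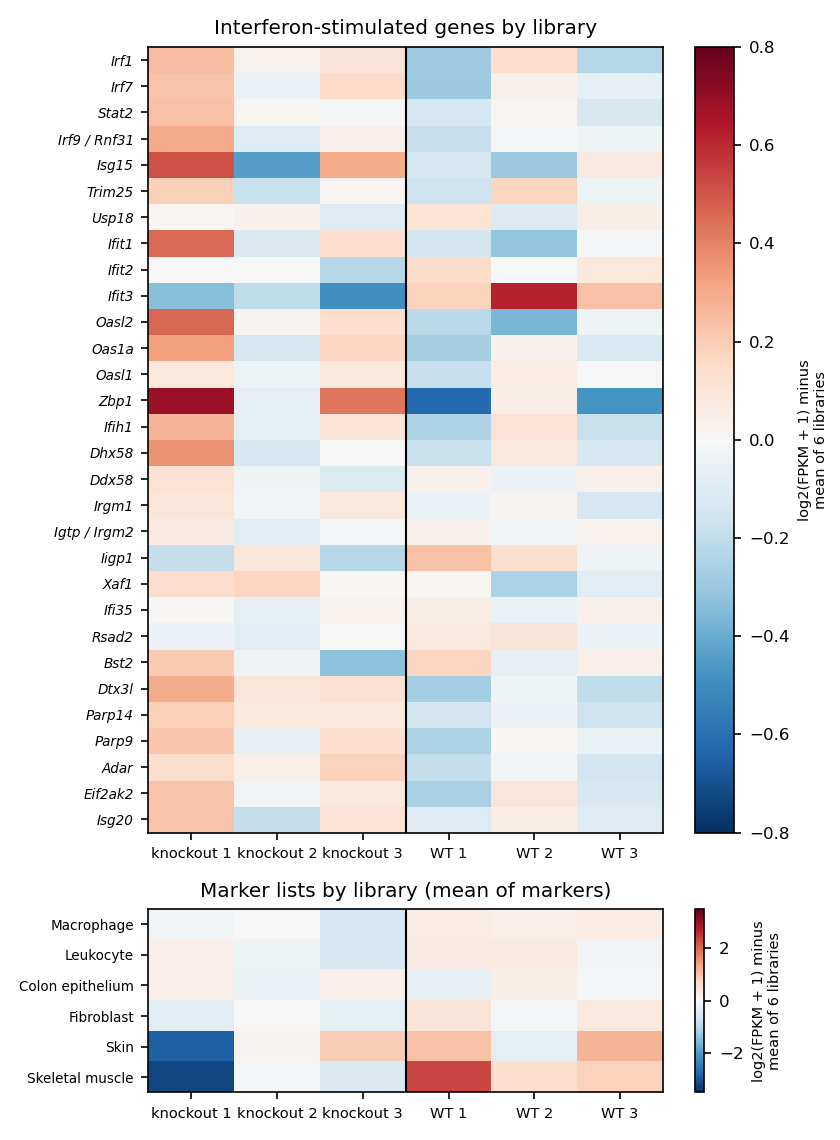
Deviation of each tested row from its mean over the 6 libraries (upper panel, log2(FPKM + 1), colour) and the mean deviation of 6 marker lists (lower panel, a wider colour scale), with the 3 TNFR2-knockout libraries left of the 3 WT libraries. Knockout library 1 is the highest library in most rows, and it is the lowest for skin and skeletal muscle markers.

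Markers of immune cells, which also express interferon-stimulated genes, mostly had lower means in the knockout. The 5 macrophage markers (Cd68, Lyz2, C1qa, Csf1r and Adgre1) summed to 273, 276 and 186 FPKM in the knockout libraries, against 379, 333 and 345 FPKM in the WT libraries, and all 5 lay lower without overlap, as 12.5% of all tested genes did. Siglech, a marker of plasmacytoid dendritic cells, the main makers of type I interferon, had 1.14, 1.05 and 0.965 FPKM in the knockout libraries, against 1.02, 0.775 and 1.07 FPKM in the WT libraries. Of the other 4 markers of that list, Klk1 had a higher mean in the knockout, at 1.13 times that of WT, and 3 had lower means. Cox6a2 had 1.93, 18.1 and 17.5 FPKM in the knockout libraries, against 64.4, 19.9 and 28.7 FPKM in the WT libraries, without overlap, and Ly6d had 7.53, 33.7 and 59.7 FPKM in the knockout libraries, against 78.0, 32.6 and 81.4 FPKM in the WT libraries, with overlap. Cox6a2 was lowest in knockout library 1 and highest in WT library 1, as were the summed skeletal muscle markers. Ly6d was lowest in knockout library 1 and highest in WT library 3, as were the summed skin markers. Neither value can be given to plasmacytoid dendritic cells alone, and the part of muscle and skin was not tested. Ccr9 was at or under 0.170 FPKM in all 6 libraries, with a knockout mean 0.711 times that of WT. The list summed to 870, 593 and 797 FPKM in the knockout libraries, against 725, 753 and 697 FPKM in the WT libraries, nearly all of it Klk1. Within the genotypes Klk1 was highest in knockout library 1 and WT library 2, and lowest in knockout library 2 and WT library 1. Epcam, Krt8, Vil1 and Cdh17 had the same order, while Krt20 and Car1 were highest in knockout library 3 among the knockouts. Klk1 cannot be given to plasmacytoid dendritic cells alone either, and the part of epithelium was not tested. The 4 T and NK cell markers summed to 7.42, 3.73 and 2.87 FPKM in the knockout libraries, against 6.59, 6.17 and 5.35 FPKM in the WT libraries. The 3 B cell markers summed to 12.8, 3.83 and 2.30 FPKM in the knockout libraries, against 14.3, 13.6 and 5.30 FPKM in the WT libraries. None of the tested markers passed, and their part in the levels of the set was not tested.

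Other genes of the pathway, listed by role, gave no call either. Of 62 listed genes 51 were tested, 26 with higher and 25 with lower means in the knockout, and 0 passed in limma with Benjamini-Hochberg adjustment over all genes. At an unadjusted p under 0.05 were 13 of the 51 (25.5%), against 16.2% of all tested genes. The median log2 change of the 51 was 0.013, beside -0.027 over all tested genes, of which 42.6% were higher in the knockout. The 10 interferon genes among the 62 were at or near 0, with 0.0786 FPKM of Ifng in WT library 2 the highest value.

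Of 9 receptor and kinase genes 5 averaged higher and 4 lower. Ifnar2, a chain of the type I receptor, averaged 11.8 ± 1.56 FPKM in knockout and 15.2 ± 2.06 FPKM in WT libraries, Ifngr1, a chain of the interferon gamma receptor, 141 ± 9.38 FPKM in knockout and 122 ± 15.5 FPKM in WT libraries, and the kinase gene Tyk2 8.59 ± 0.696 FPKM in knockout and 7.67 ± 0.591 FPKM in WT libraries (SD, n = 3 each). The 3 had the smallest p of their list, with adjusted p-values by limma and Benjamini-Hochberg of 0.279, 0.378 and 0.423. Of 10 genes for sensing and its adaptors 5 averaged higher and 5 lower. Irf5, a factor of myeloid cells, averaged 4.93 ± 0.378 FPKM in knockout and 6.49 ± 0.520 FPKM in WT libraries without overlap, and its log2 change of -0.34 ± 0.085 did not pass (± SE; adjusted p by limma and Benjamini-Hochberg = 0.209). Irf3, which starts interferon transcription, averaged 21.4 ± 1.07 FPKM in knockout and 19.3 ± 1.01 FPKM in WT libraries, and Tlr3, the endosomal sensor of double-stranded RNA, 4.65 ± 0.379 FPKM in knockout and 3.83 ± 0.431 FPKM in WT libraries (adjusted p = 0.352 and 0.308 in the same fit).

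Of 7 tested regulators 3 averaged higher and 4 lower. Socs1, the feedback inhibitor of the receptor kinases, averaged 2.56 ± 0.475 FPKM in knockout and 3.48 ± 0.432 FPKM in WT libraries, the nuclear body gene Sp100 9.18 ± 0.372 FPKM in knockout and 7.85 ± 0.633 FPKM in WT libraries, and Irf2, which competes with Irf1 for DNA, 50.9 ± 1.29 FPKM in knockout and 44.8 ± 3.90 FPKM in WT libraries (SD, n = 3 each). The adjusted p-values by limma and Benjamini-Hochberg were 0.279, 0.279 and 0.319.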

How the data were processed

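The series holds distal colon RNA from 3 TNFR2-knockout and 3 WT mice, grouped by title. Per the series' design text the authors used Tophat2 and Bowtie2 for alignment, Cufflinks for assembly and Cuffdiff 2 for tests at q under 0.05, on mm10 per the submitters' processing notes. The deposited FPKM values, per the file headers, hold no counts, so no counting interval is given. Any p-value or q-value quoted as the authors' deposited one comes from Cuffdiff 2. The sources used here name no program release, annotation, strandedness or library scaling.

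Named rows averaging 0.5 FPKM or more (14564) entered a limma 3.58.1 fit (R 4.3.3) of log2(FPKM + 1), with trend and robust moderation and no covariate. Genes were called when the Benjamini-Hochberg adjusted p over all of them was under 0.05. Changes are knockout minus WT and understate those of low genes. Unnamed rows, 6.13% of rows with 17.7% of the summed FPKM, were left out. The p-values measure the spread between 3 mice per genotype.

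The members and lists were chosen with earlier results of these data known. Values by library go to the 12 members with the smallest p, the 4 with the highest mean and the highest of each role group, with Isg15, Oas2 and Oas3 added after their values were seen. For other pathway lists the 3 smallest p are named. Alternatives were a pseudocount of 0.1, no minimum, a minimum of 2 FPKM, median-of-ratios scaling, limma without trend or robust moderation, a replicate block, each library left out, small RNA genes left out, and 3 added after the data were seen. Promoters are RefSeq's on GRCm38.p6, and GENCODE transcripts were aligned with BLAST+ 2.17.0.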

Additional observations from a re-analysis of the deposited data

How the results depend on the processing

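Of 476 fitted log2 changes of single rows of the set under 16 alternatives, 452 kept their direction and missed the threshold as in the analysis reported, 23 took the other sign and 1, that of Ifit3, passed it. No row of the set was called higher under any alternative, and 1 was called lower, Ifit3, without knockout library 1 and WT libraries 1 and 3. In that fit, chosen after the data were seen, 111 genes were called in all and the median log2 change of the set was -0.021. Log2 changes with the other sign there were Stat2 -0.013, Irf1 -0.074, the Irf9 row -0.019, Oas1a -0.024, Oasl1 -0.035, Ifih1 -0.094, Dhx58 -0.15, Usp18 0.076, Trim25 -0.25, Ifi35 0.026, Eif2ak2 -0.063 and Isg20 -0.092. The cause was not tested. Trim25 was at -0.062 under epithelial scaling and at -0.088 with the skin covariate, where Dhx58 was at -0.0041. Leaving out single libraries moved Trim25 between -0.070 and 0.11, the shared row of Igtp and Irgm2 between -0.068 and 0.013, Ifi35 between -0.057 and 0.0056, Ddx58 between -0.080 and 0.032, Usp18 between -0.10 and 0.014 and Bst2 between -0.23 and 0.040. The count of all called genes ran from 21 to 70 when single libraries were left out, against 42 with all 6. Without small RNA genes it was 25, with 14413 genes tested. With the replicate number as a block it was 24, with none of the set called and 3 of its 30 rows (10%) at an unadjusted p under 0.05, against 8.53% of all tested genes. Deviations of same-numbered libraries from their group means had correlations of -0.375, -0.337 and 0.209 for numbers 1, 2 and 3. These differ in sign and cannot show whether the numbers pair the mice. FPKM values give no depth per gene, so the counting precision of genes under 1 FPKM cannot be stated.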

Other observations

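A further list of 25 interferon-stimulated genes outside the set held 13 with higher and 12 with lower means in the knockout, and none was called in limma. Over all tested genes 42.6% were higher in the knockout. At an unadjusted p under 0.05 were 8 of the 25 (32.0%), against 16.2% of all tested genes. The 3 with the smallest p were Oas1g, Trim21 and Ifi204. Oas1g, the near copy of Oas1a, had 12, 9.08 and 12.3 FPKM in the knockout libraries, against 6.86, 8.72 and 7.49 FPKM in the WT libraries, and Trim21, an antibody receptor of the cytoplasm, had 5.06, 4.78 and 4.81 FPKM in the knockout libraries, against 4.24, 3.62 and 3.94 FPKM in the WT libraries. Ifi204, a DNA-binding protein prominent in macrophages, had 1.66, 2.04 and 1.30 FPKM in the knockout libraries, against 2.65, 2.30 and 2.32 FPKM in the WT libraries. None of the 3 overlapped between genotypes, 2 higher and 1 lower (log2 changes 0.48 ± 0.13, 0.25 ± 0.078 and -0.37 ± 0.12, ± SE; adjusted p by limma and Benjamini-Hochberg = 0.222, 0.242 and 0.257). The 3 were picked by their p, which favours rows without overlap. Of all tested genes, 9.3% lay higher and 12.5% lower without overlap.

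Genes of the same list with lower means, picked after their values were seen, included Ifitm2, which blocks virus entry at membranes, at 237 ± 10.7 FPKM in knockout and 283 ± 33.5 FPKM in WT libraries, and the Schlafen genes Slfn2 and Slfn5, at 6.65 ± 0.561 FPKM in knockout and 8.20 ± 0.805 FPKM in WT libraries and 2.97 ± 0.474 FPKM in knockout and 3.94 ± 0.434 FPKM in WT libraries (SD, n = 3 each). Fibroblast markers beside them summed to 504, 686 and 523 FPKM in the knockout libraries, against 930, 648 and 851 FPKM in the WT libraries, and their part in these values was not tested.

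Ide, which is called lower in the knockout, starts 2.68 Mb beyond Ifit3 on chromosome 19. It had 8.86, 9.92 and 12 FPKM in the knockout libraries, against 20.3, 21.2 and 24.1 FPKM in the WT libraries (limma, Benjamini-Hochberg adjusted p = 0.023). Ide was picked with its result known, and a link to Ifit3 was not tested.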
